A study of Rattus norvegicus with 10 samples.

Results

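Trypsinogens, the inactive forms of the digestive protease trypsin, and their inhibitors were followed in pancreatic islets of rats after a short high-fat diet. The members were every probeset whose single platform gene symbol was Prss1, Prss2, Prss3, Try4, Try10, Spink1 or Spink3. Of these 7 symbols 4 had a probeset, which gave 6 probesets in all, of 14217 genes with a single symbol on the array. Prss1, Prss2 and Prss3 had 1 probeset each and Spink1 had 3. Try4, Try10 and Spink3 were not symbols of the platform annotation. In the RefSeq gene table Try4 is listed as a synonym of both Prss3 and 1810009J06Rikl, and Spink3 as a synonym of both Spink1 and Spink1l. No probeset with several symbols held a member. Trypsinogen genes are close paralogues, the probe sequences were not used here, and part of a signal may come from a related transcript.

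Islets came from male Wistar rats, 7 weeks old and caged singly, that ate a cafeteria diet, in which fat made up 66% of calories (5 arrays), or standard chow with 8% (5 arrays) for 10 days. A cafeteria diet offers rats energy-rich foods made for people. After collagenase digestion and a Histopaque gradient the islets were sorted by hand under a microscope. Each array, a GeneChip Rat Genome 230 2.0, carried an independent sample, and the labels do not say whether animals were pooled in one. The title, source name and description (3 fields) of all 10 arrays name the diet used here for grouping, while the diet characteristic (1 field) names the other diet. With that characteristic every sign below would turn.

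Trypsinogen is made by acinar cells, the enzyme-secreting cells that surround the islets. In the gut, enteropeptidase cuts off its activation peptide, and the resulting trypsin activates the other pancreatic zymogens. SPINK1, a small Kazal-type inhibitor packed with the zymogens, blocks trypsin that becomes active too early. Islets that have been isolated and picked still carry some acinar cells, so acinar transcripts are read in islet RNA. In such bulk samples fewer acinar cells and less of a transcript per acinar cell cannot be told apart.

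The members were chosen by name and by their measured signals in these same arrays, in which Prss2 and Prss3 were higher after the cafeteria diet and Prss1 was not. Differences of the members between the diets are therefore given as a description, without a test. The fit behind them was limma over 18625 probesets, in which 0 (0%) had an adjusted p under 0.05 and 1941 (10.4%) an unadjusted p under 0.05. The 3 trypsinogen probesets passed the filter on low signals, a mean log2 value of 6.77, and their p-values are not given. Prss2 and Prss3 passed it through the cafeteria group, with mean log2 values of 7.90 and 7.78 in the cafeteria group, against 6.58 and 5.89 in the standard group, so they had to differ. The log2 values of the diets overlapped for all 6 member probesets, while 0.988% of the tested probesets were higher and 1.45% lower in the cafeteria group without overlap. The 3 Spink1 probesets lay below the filter, and their differences come from the same fit without the filter.

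The trypsinogen genes form a cluster on rat chromosome 4, where the RefSeq table of assembly GRCr8 lists Prss3bl1, Prss3b, Prss3, Try5, Try10, Prss2 and Prss1 in this order, with other genes between some of them. Of the members, Prss1 and Prss2 had an entry in the RefSeq promoter table that could be set beside their values, and Prss3 and Try10 had none. The 250 bases before the start of each are shown because these genes of 1 cluster differed in how they stood between the diets. Prss1 is at chr4:71330999-71331248 and Prss2 at chr4:71244714-71244963, both on the plus strand of GRCr8 and written 5′ to 3′. Capitals mark the TATA box letters TATAAA, and the letters GGGAAA and CACCTG on either strand, which occur in sites of the acinar transcription factor complex PTF1 but also in many other places.
Prss1: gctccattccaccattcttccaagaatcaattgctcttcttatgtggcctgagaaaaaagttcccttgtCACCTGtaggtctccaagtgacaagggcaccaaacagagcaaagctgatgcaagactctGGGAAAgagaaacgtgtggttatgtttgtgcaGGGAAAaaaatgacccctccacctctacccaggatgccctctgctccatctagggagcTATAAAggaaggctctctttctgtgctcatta
Prss2: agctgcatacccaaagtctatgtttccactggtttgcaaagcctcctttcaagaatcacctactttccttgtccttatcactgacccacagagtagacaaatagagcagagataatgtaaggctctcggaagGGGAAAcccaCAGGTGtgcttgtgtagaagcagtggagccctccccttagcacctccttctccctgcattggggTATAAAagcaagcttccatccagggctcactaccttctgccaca
TATAAA was found from base 32 to base 27 before the start of Prss1 and from base 44 to base 39 before that of Prss2. In Prss2 the letters GGGAAA (from base 118 to 113) and CACCTG on the other strand (from base 108 to 103) lay next to each other. In Prss1 GGGAAA occurred at bases 122 to 117 and again at 90 to 85, and CACCTG at bases 181 to 176. Searched on both strands over the same length, TATAAA was in 12.9%, GGGAAA in 22.0% and CACCTG in 15.9% of 33469 promoters. The motifs do not overlap in these sequences. A match is a run of letters and not a shown binding site. In a global alignment the upstream sequences of Prss1 and Prss2 were identical in 157 of 280 columns (56.1%).

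Prss2 encodes an anionic trypsinogen of the rat pancreas. Its signal was 196.5, 190.9, 83.5, 521.9 and 331.7 in cafeteria replicates 1 to 5, against 90.1, 43.0, 69.1, 90.4 and 140.9 in standard replicates 1 to 5. In the cafeteria group 4 of 5 arrays lay above the highest standard array, and replicate 3 fell within the range of the standard arrays, so the groups overlapped. The means were 264.9 ± 168.5 in the cafeteria group and 86.7 ± 36.0 in the standard group (SD, n = 5 each). On the log2 scale the cafeteria group was higher by 1.32 (SE 0.41), or 2.50-fold on the scale of log2(signal + 14.15), which understates the change of a dim probeset.

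Prss3, a trypsinogen gene with Try4 among its listed synonyms, showed the same order of diets. The signal of its probeset was 243.7, 175.0, 83.6, 364.2 and 266.1 in cafeteria replicates 1 to 5, against 107.1, 13.6, 12.2, 79.2 and 73.3 in standard replicates 1 to 5. Again 4 of 5 cafeteria arrays exceeded every standard array and cafeteria replicate 3 did not. The means were 226.5 ± 104.8 in the cafeteria group and 57.1 ± 42.3 in the standard group (SD, n = 5 each). The log2 difference was 1.89 (SE 0.49), or 3.70-fold on that scale. Standard replicates 2 and 3 were near the pseudocount, and the table holds no detection calls, so it is not known whether they were above background. The mean log2 value of Prss3 stood at percentile 41.0 of the non-control probesets and that of Prss2 at percentile 47.3, both not far above the filter at percentile 40.

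Prss1 encodes another anionic trypsinogen of the rat. Its signal was 1939.2, 2035.2, 824.3, 5373.8 and 3556.9 in cafeteria replicates 1 to 5, against 2906.3, 2322.3, 1842.2, 1752.4 and 4425.0 in standard replicates 1 to 5. The highest and the lowest of the 10 arrays were both cafeteria arrays, replicates 4 and 3, and the groups overlapped over most of their range. The means were 2745.9 ± 1761.5 in the cafeteria group and 2649.6 ± 1093.4 in the standard group (SD, n = 5 each). The log2 difference was −0.12 (SE 0.44). Its sign was not stable, since it was 0.24 without cafeteria replicate 3, 0.082 without standard replicate 5 and 0.37 with the acinar index as a covariate.

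**Figure D1:**
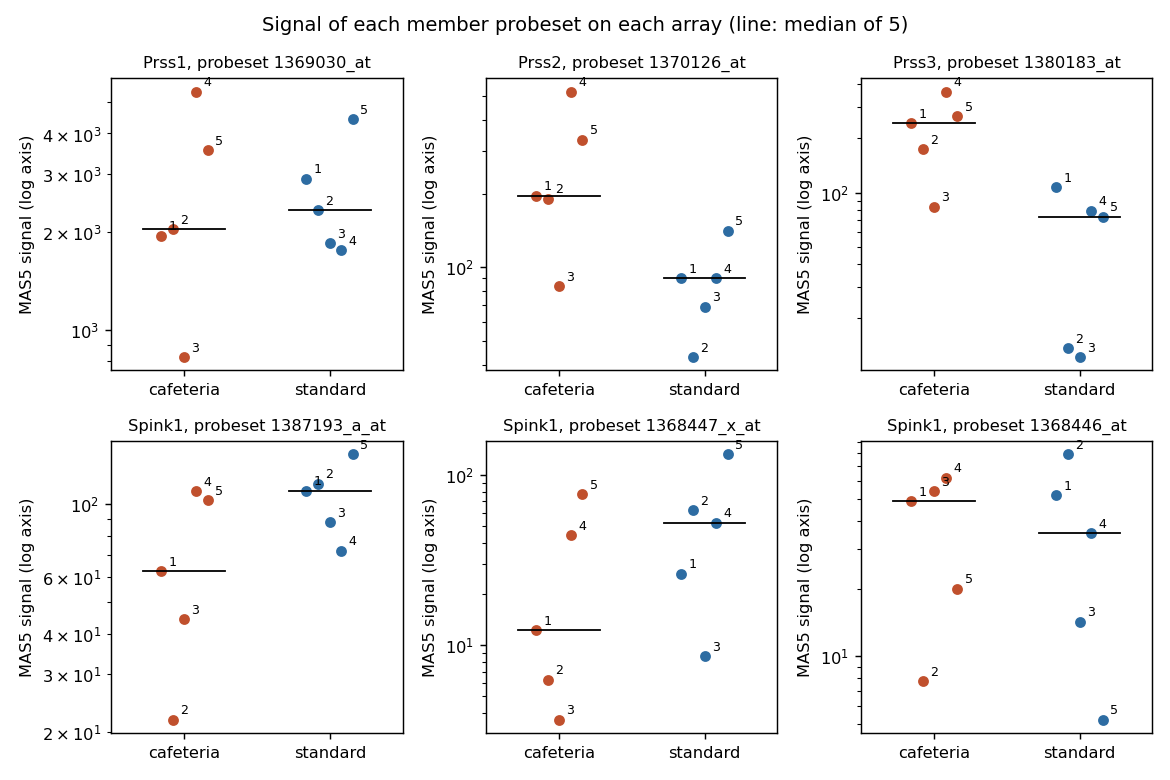
MAS5 signal (log axis) of the 6 member probesets on each array, cafeteria left and standard right, with replicate numbers beside the points and a line at the median of 5 arrays. Prss2 and Prss3 have 4 of 5 cafeteria points above all standard points, and the groups overlap for all 6 probesets.

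Spink1, the trypsin inhibitor gene, was read by 3 dim probesets with differing values. The brightest, with the suffix _a_at that marks probes shared by transcripts of a gene, had signals of 62.2, 21.8, 44.3, 109.6 and 102.9 in cafeteria replicates 1 to 5, against 110.0, 115.7, 88.1, 72.1 and 142.5 in standard replicates 1 to 5. Here 3 of 5 cafeteria arrays lay below the lowest standard array, and the log2 difference was −0.65 (SE 0.33). The probeset with the suffix _x_at, which marks probes that can also bind other sequences, differed by −0.75 (SE 0.57). It ran from 3.65 to 77.4 in cafeteria arrays and from 8.62 to 132.3 in standard arrays. The _x_at probeset is annotated to the same sequence record as the brightest probeset, so these are not taken as independent readings. The third probeset is annotated to another record.

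The third Spink1 probeset, which has no such suffix, differed by 0.11 (SE 0.48) and ran from 7.73 to 62.4 in cafeteria arrays and from 5.23 to 79.1 in standard arrays. The 3 probesets stood at percentiles 36.3, 17.9 and 18.3 of the mean log2 value, below the filter. The signal of a probeset depends on its probes as well as on the RNA, so the brightness of Spink1 is not set against that of the trypsinogens.

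Neighbours of the members by name give a comparison outside the rule. Prss3b, whose listed synonyms are Prss3 and Try3, overlapped between the diets. Its signal was 1373.0, 1398.9, 772.7, 4199.0 and 3232.6 in cafeteria replicates 1 to 5, against 2339.9, 2239.1, 1723.3, 2019.5 and 3814.9 in standard replicates 1 to 5, a log2 difference of −0.35. The lowest and the highest array were again cafeteria replicates 3 and 4. Spink1l, a Spink1-like gene, was dim, at 51.2 ± 26.4 in the cafeteria group and 91.7 ± 37.5 in the standard group (SD, n = 5 each), with a log2 difference of −0.71.

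Acinar transcripts on each array were summarized by an index, the mean log2 value of 26 measured acinar marker genes of 30 listed, none of them a member. The index holds both the number of acinar cells and the level of these transcripts in them. None of the 26 was at 0 on any array. Summed over the markers, the signal was 5709 to 22736 across cafeteria arrays and 11039 to 24621 across standard arrays. The 4 brightest were the amylase gene Amy2a3, the carboxypeptidase gene Cpb1, the lipase gene Pnlip and the elastase gene Cela1. Cpb1 averaged 1361 ± 843 in the cafeteria group and 1091 ± 372 in the standard group, and Pnlip 1362 ± 1101 in the cafeteria group and 1108 ± 471 in the standard group (SD, n = 5 each). Amy2a3 averaged 1225 ± 734 in the cafeteria group and 2549 ± 1067 in the standard group, and Cela1 828.3 ± 301.6 in the cafeteria group and 1389 ± 359 in the standard group (SD, n = 5 each).

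The index was 7.95, 7.97, 7.42, 8.98 and 8.68 in cafeteria replicates 1 to 5, against 8.82, 8.34, 8.20, 8.17 and 9.09 in standard replicates 1 to 5. Cafeteria replicate 3 had the lowest index and standard replicate 5 the highest. The difference of −0.33 was within the spread of the arrays (exact two-sided permutation test over all divisions of the arrays, p = 0.357, where the smallest possible p is 0.00794). Of the 22 acinar markers that were tested, 5 were higher and 17 lower in the cafeteria group, with a median of −0.35 against 0.0056 over all tested probesets. By limma 0 passed adjustment (lowest adjusted p = 0.401), and 4 were lower at an unadjusted p under 0.05. Of all 18625 tested probesets, 915 were lower at that threshold.

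Prss1 moved with the acinar index from array to array. As a description, Pearson's r over the 10 arrays was 0.95 and Spearman's rho 0.88. Without the 2 arrays farthest from the median index, cafeteria replicate 3 and standard replicate 5, r was 0.89 and rho 0.79. These forms include the diet difference of Prss1, which was part of the choice, so their p-values are not given. With the mean of each diet removed from both measures r was 0.98 (exact permutation within diets, p adjusted over the 4 members = 0.000278). The 5 arrays of each diet had the same order for Prss1 and for the index (rho = 1, adjusted p = 0.000556 by exact permutation). The arrays are the points, and member and index share each array's scaling.

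Prss2 and Prss3 were compared with the index within the diets, because a correlation over both diets includes the diet difference that was part of their choice. As a description, r over all 10 arrays was 0.38 for Prss2 and 0.18 for Prss3, and rho was 0.22 for Prss2 and 0.042 for Prss3. With the diet means removed r was 0.90 for Prss2 (exact permutation p within diets 0.00264, adjusted 0.00528) and 0.69 for Prss3 (exact permutation p = 0.0283, adjusted 0.0320). The corresponding rho was 0.60 for Prss2 (exact permutation p = 0.109, adjusted 0.145) and 0.55 for Prss3 (exact permutation p = 0.145, adjusted 0.145), so the ranks alone did not pass.

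Within the diets the relation of Prss2 held without any single array, with r from 0.84 to 0.95 and an adjusted p of at most 0.0417 (exact permutation). Without both cafeteria replicate 4 and standard replicate 5, which lie farthest out on the centred index, r was 0.80 (exact permutation p = 0.0694, adjusted 0.104), and the call rested on those arrays. For Prss3 r without single arrays ran from 0.57 to 0.83, and it lost the call without cafeteria replicate 1, 3, 4 or 5 or standard replicate 3 (exact permutation, highest adjusted p = 0.115). Without the outer pair of arrays r for Prss3 was 0.62 (exact permutation p = 0.0781, adjusted 0.104).

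The brightest Spink1 probeset, which lay below the filter, also moved with the index. The other Spink1 probesets were not tested against it. In cafeteria replicate 3 and standard replicate 5, with the lowest and the highest index, the _x_at probeset read 3.65 and 132.3. The probeset without a suffix read 54.4 and 5.23 there, in the opposite order. Over the 10 arrays r was 0.78 (permutation p = 0.00564, adjusted 0.0113) and rho 0.88 (permutation p = 0.0014, adjusted 0.00316). Without cafeteria replicate 3 and standard replicate 5 r was 0.71 (exact permutation p = 0.0253, adjusted 0.0507), so the adjusted call rested on them. With the diet means removed r was 0.76 (exact permutation p = 0.0320, adjusted 0.0320) and rho 0.80 (exact permutation p = 0.0192, adjusted 0.0383). Without cafeteria replicate 4 and standard replicate 5 that r was 0.62 (exact permutation p = 0.201, adjusted 0.201). Without single arrays it ran from 0.67 to 0.94, and it lost the call without cafeteria replicate 1, 4 or 5 or standard replicate 3, 4 or 5 (exact permutation, highest adjusted p = 0.0851). Cafeteria replicate 2 read lowest of all 10 arrays for Spink1, although its index was above that of cafeteria replicates 1 and 3.

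**Figure D2:**
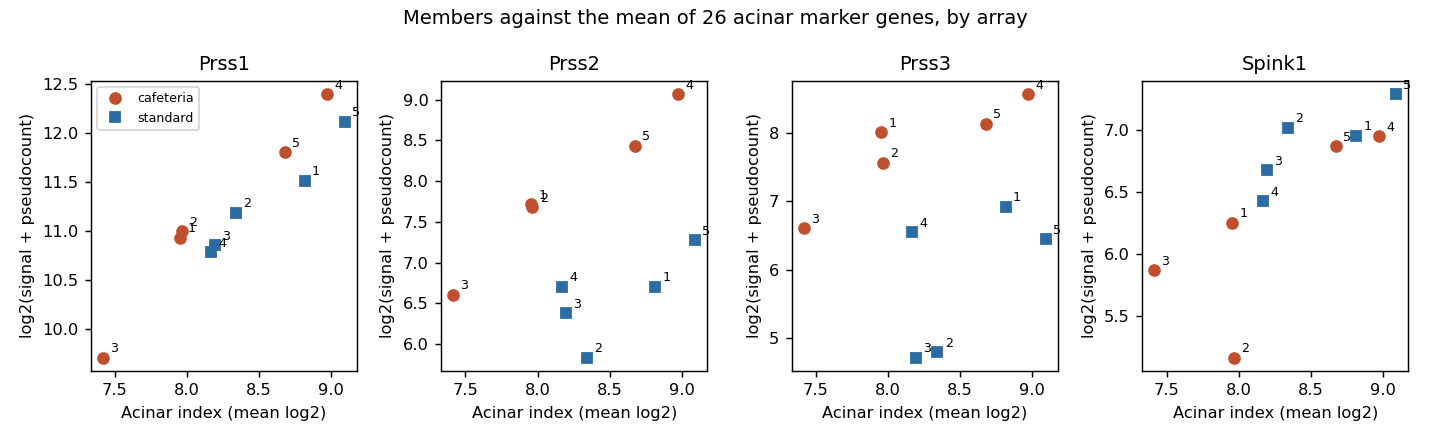
Log2(signal + 14.15) of Prss1, Prss2, Prss3 and the brightest Spink1 probeset (vertical axes) against the acinar index (horizontal axes), 1 point per array with its replicate number, circles for cafeteria and squares for standard. Prss1 follows the index over the arrays of both diets (r = 0.95). For Prss2 and Prss3 the cafeteria arrays lie above standard arrays of a like index. With the index as a covariate Prss1 too was higher in the cafeteria group, by 0.37 (SE 0.12).

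With the index subtracted, the arrays of the diets did not overlap for Prss2 and Prss3 and did overlap for Prss1. The log2 value of Prss2 minus the index was −0.24, −0.29, −0.81, 0.091 and −0.24 in cafeteria replicates 1 to 5, against −2.11, −2.51, −1.82, −1.46 and −1.82 in standard replicates 1 to 5. For Prss3 it lay between −0.80 and 0.056 across cafeteria arrays and between −3.55 and −1.62 across standard arrays. Cafeteria replicate 3, which overlapped with the standard arrays in the signals, lay with its own group. Of all 18625 tested probesets, 14 (0.0752%) were higher without overlap on this scale and 4 (0.0215%) lower. The diet difference of the members was part of the choice. Subtraction also adds the spread of the index to probesets that do not follow it. Nothing is therefore read from that share.

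For Prss1 the same quantity was 2.97 ± 0.41 in the cafeteria group and 2.77 ± 0.17 in the standard group, and for Spink1 it was −1.97 ± 0.49 in the cafeteria group and −1.65 ± 0.22 in the standard group (SD, n = 5 each). Both overlapped between the diets. The SD of Prss2 over the cafeteria arrays was 0.32 after subtraction and 0.92 before it, and over the standard arrays 0.39 after and 0.53 before. For Prss3 the SD was 0.31 after and 0.74 before in the cafeteria arrays, and 0.88 after and 1.05 before in the standard arrays. For Prss1 it was 0.41 after and 1.01 before in the cafeteria arrays, and 0.17 after and 0.54 before in the standard arrays. With the index as a covariate in limma the differences were 1.74 (SE 0.21) for Prss2, 2.28 (SE 0.39) for Prss3, 0.37 (SE 0.12) for Prss1 and −0.38 (SE 0.24) for Spink1, again as a description. On that form Prss1 too was higher in the cafeteria group. The index itself differed by −0.33 between the diets, so subtracting it moves every member up in the cafeteria group. It is not a correction for the number of acinar cells.

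**Figure D3:**
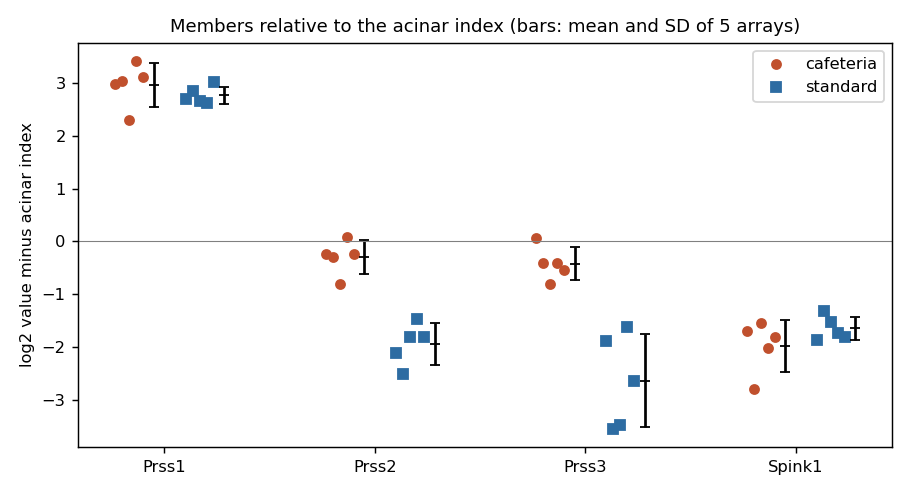
Log2 value of each member minus the acinar index (vertical axis), by gene and diet, with a point per array and bars for the mean and SD of 5 arrays. The cafeteria points of Prss2 (−0.81 to 0.091) and Prss3 (−0.80 to 0.056) lie above all standard points, and the groups overlap for Prss1 and Spink1.

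Among the acinar markers themselves, Cpb1 was higher without overlap on that scale, 1 of 26 (3.85%). Amy2a3, Cela1, the zymogen granule gene Sycn and the phospholipase gene Pla2g1b were lower without overlap, 4 of 26 (15.4%). These genes are part of the index, and subtracting it removes variation that they share. Their shares are therefore not set against those of all tested probesets. The trypsinogen-like gene Prss3bl1 was, with Prss2, Prss3 and Cpb1, among the 14 probesets that were higher, and it was picked out after its values were seen. Its signal was 108.15, 96.5, 145.85, 260.1 and 178.5 in cafeteria replicates 1 to 5, against 91.1, 76.4, 74.5, 75.35 and 128.2 in standard replicates 1 to 5. Its log2 difference was 0.68. Prss3bl1 stood at percentile 43.8 of the mean log2 value and passed the filter through the cafeteria group. It therefore had to be higher there, and gives no support of its own.

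Markers of other cells and a sign of RNA quality are given beside these values. The 8 immune markers summed to 3966 to 17511 across cafeteria arrays and to 4241 to 16725 across standard arrays, with 0 of 8 higher in the cafeteria group, 0 at 0 on any array and an index difference of −0.79 (exact permutation p = 0.0873, adjusted 0.172 over 5 measures). The GAPDH 3 prime to 5 prime ratio, which rises with RNA breakdown, spanned 0.964 to 1.11 among cafeteria arrays and 1.00 to 1.26 among standard ones (exact permutation p = 0.0238, adjusted 0.119), and the beta-actin ratio 2.24 to 3.01 among cafeteria arrays and 2.51 to 3.20 among standard ones. With that ratio as a covariate the differences were 1.79 for Prss2, 2.55 for Prss3, 0.061 for Prss1 and −0.52 for Spink1. The duct index differed by 0.12 (exact permutation p = 0.429, adjusted 0.429), with 8 of 10 markers measured, 0 at 0 on any array and 5 of 8 higher in the cafeteria group. Summed, the duct markers gave 8633 to 9865 across cafeteria arrays and 7576 to 8868 across standard arrays. The part of immune or duct cells in the members' differences was not tested. The islet label can be set beside its markers, of which 9 of 10 were measured and 0 were at 0 on any array. They summed to 183524 to 238528 across cafeteria arrays and to 152040 to 194100 across standard arrays. Of these 9, 8 were higher in the cafeteria group, with an index difference of 0.15 (exact permutation p = 0.103, adjusted 0.172).

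Genes with the array profile most like each member were taken by Pearson's r over the 10 arrays among 14035 tested probesets of other genes, and these r values are descriptions that share arrays and scaling. For Prss1 they were acinar genes, the carboxypeptidase gene Cpa1 (r = 0.98), the elastase gene Cela2a (0.97) and the zymogen granule gene Zg16 (0.96). For Prss2 they were the antiviral gene Shfl (0.93), Tbl2 (0.92) and Fkbp14 (0.91), which encodes a prolyl isomerase of the endoplasmic reticulum. For Prss3 they were the protein disulfide isomerase gene Pdia5 (0.91), the sialic acid synthesis gene Gne (0.89) and the nuclear export gene Xpo1 (0.89). For Spink1 they were the cell polarity gene Crb3 (0.93), the ornithine carrier gene Slc25a15 (0.89) and Camsap2 (0.89). No gene named here for Prss2, Prss3 or Spink1 was in the acinar list. For Prss2 and Prss3 the ranking includes the diet difference that was part of their choice, so nothing is read from that absence. With the diet means removed r was 0.90, 0.83 and 0.82 for the genes of Prss2. It was 0.88, 0.81 and 0.79 for those of Prss3. The acinar index had an r of 0.90 with Prss2 and 0.69 with Prss3 on that form.

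Other genes of the pathway around trypsinogen (proteases, inhibitors, receptors, a channel and membrane proteins) were taken from a list of 24. Of these, 21 were measured and 14 passed the filter. By limma 0 passed adjustment in either direction (0% of all probesets were called, lowest adjusted p in the list 0.469). At an unadjusted p under 0.05 there was 1, where 10.4% of all tested probesets had such a p. Of the 14, 6 were higher and 8 lower, with a median of −0.041 against 0.0056 over all tested probesets. Tmprss15, which encodes enteropeptidase, had no probeset under that symbol, and neither did Spink2 and Cckar.

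Among proteases, cathepsin B, which can activate trypsinogen inside acinar cells, had a Ctsb signal of 11164 ± 960 in the cafeteria group and 10419 ± 629 in the standard group (difference 0.098, SE 0.082). Cathepsin L, which can degrade trypsinogen, differed by −0.028 (Ctsl, SE 0.071), and cathepsin D, which can activate cathepsin B, by 0.27 (Ctsd, SE 0.12, unadjusted p = 0.0443, adjusted p = 0.469 by limma). The chymotrypsin genes Ctrc, whose human product degrades trypsinogen, Ctrl and Ctrb1 differed by −0.61 (SE 0.40), −0.35 (SE 0.34) and −0.50 (SE 0.54) in this order. These 3 are also acinar markers. The lysosome and granule membrane genes Lamp2 and Vamp8 differed by −0.089 (SE 0.067) and −0.091 (SE 0.080).

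Among inhibitors, the α1-antitrypsin gene Serpina1 differed by 0.26 (SE 0.22) and the α2-macroglobulin gene A2m by −0.38 (SE 0.21). The Kunitz-type inhibitor genes Spint1 and Spint2 differed by 0.042 (SE 0.079) and 0.10 (SE 0.085). Serpina3n (0.67), Serpini2 (0.34), Spink4 (0.37) and Spink5 (0.18) lay below the filter. The trypsin receptor gene F2rl1, which encodes PAR2, had a signal of 311.1 ± 58.6 in the cafeteria group and 302.0 ± 53.5 in the standard group (SD, n = 5 each), a difference of 0.039 (SE 0.15). The related receptor genes F2rl2 (−0.092) and F2rl3 (0.20) were below the filter, as was the chloride channel gene Cftr (−0.070), and the calcium-sensing receptor gene Casr differed by −0.053 (SE 0.20).

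**Figure D4:**
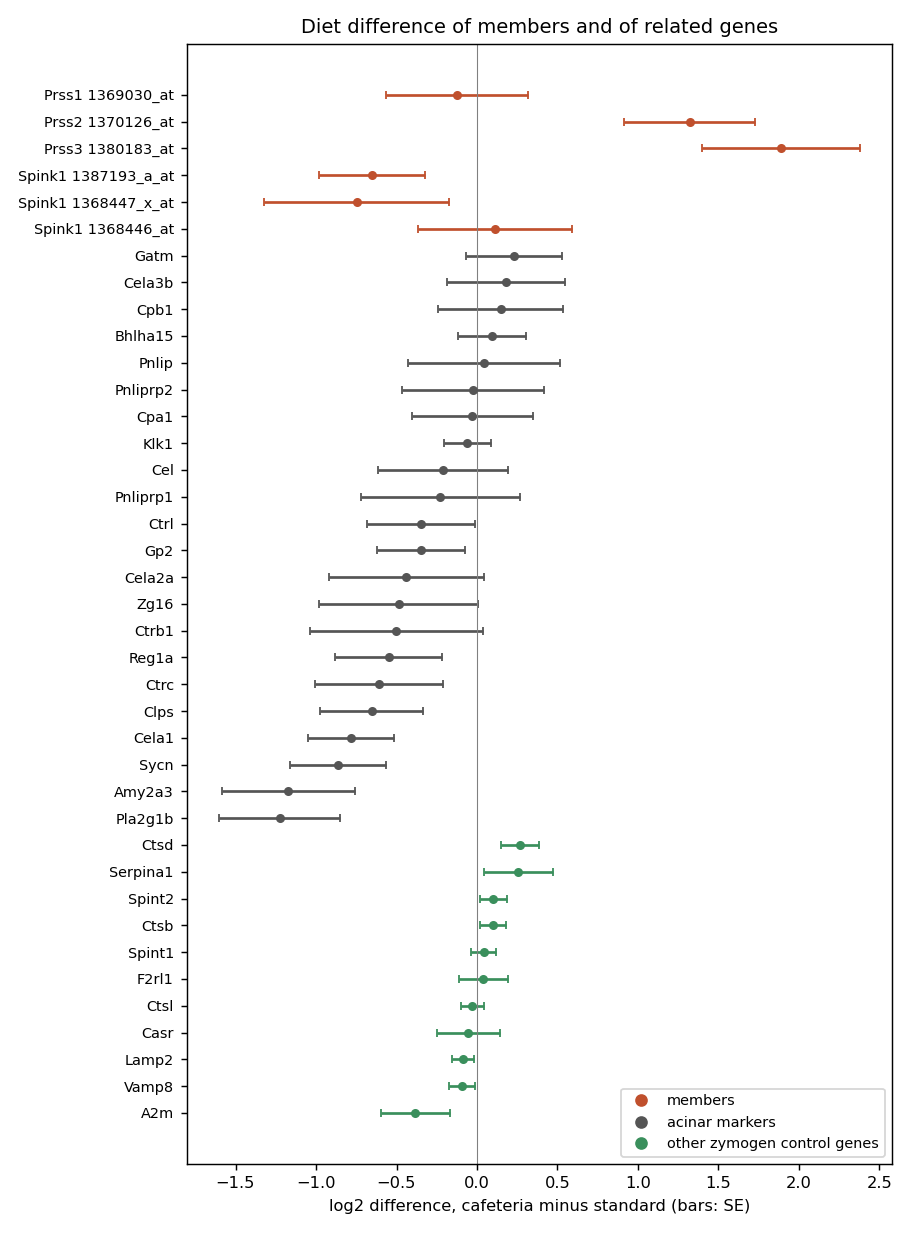
Log2 difference of cafeteria minus standard (horizontal axis, bars for the SE) for the 6 member probesets, the tested acinar markers and the other tested genes of the trypsin list. Prss3 (1.89) and Prss2 (1.32) were chosen with this difference known, so nothing is read from their place at the far right. Pla2g1b (−1.23) and Amy2a3 (−1.17) lie farthest to the left.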

How the data were processed

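Gene expression was read on 10 one-colour arrays, 5 of each diet, grouped by title. The deposited values are linear intensity values, 1 per probeset, and MAS5 is named per the submitters' processing notes, with no version. MAS5 scales each array to a common mean, and the mean after trimming 2% at each end was 500.1 to 500.2 on every array. The authors' table holds 31099 probesets, 57 of them controls, and no detection calls. Equal scaling hides changes in total RNA per cell, and dim probesets are noisy.

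Signals were taken as log2(value + 14.15), the pseudocount being the 10th percentile of all values. To pass the filter a probeset's mean log2 value had to exceed the 40th percentile of all non-control ones, and those that did were tested with limma 3.58.1 (R 4.3.3), cafeteria minus standard, with Benjamini-Hochberg adjustment and a threshold of 0.05. Median signals ran from 150.85 to 173.2, array pairs correlated at r of 0.96 to 0.97 with no 2 alike, and the number of arrays limits the precision. Correlations used 100000 permutations at 10 arrays and exact enumeration otherwise. Tests were checked on simulated data. Symbols came from the platform annotation. Promoters came from RefSeq (GRCr8) and were aligned with Biopython 1.88, with a match at 1, a mismatch at −1, and gaps at −2 to open and −0.5 to extend.

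The members and lists were chosen with earlier results of these data known. The genes named are all member probesets, the 3 genes most like each member, the 4 brightest acinar markers and all measured genes of the trypsin list. The acinar markers without overlap, the listed transcription factors and the genes related to the members by name were named after their values were seen.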

Additional observations from a re-analysis of the deposited data

Results flagged for a closer look

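In 94 sets of 5 arrays (the genes, probesets and index named in the report, in each diet), Dixon's criterion for 5 values picked out 1 array in each of 3 sets, where chance gives about 1 set in 20, or 4.7. All 3 are log2 values. Ctsb was highest in cafeteria replicate 5 at 13.65, with the other cafeteria arrays at 13.36 to 13.42. Serpini2, which lay below the filter, was lowest in standard replicate 3 at 4.38, with the other standard arrays at 5.65 to 6.08. Slc25a15, one of the genes most like Spink1, was highest in standard replicate 5 at 9.96, with the other standard arrays at 9.65 to 9.70. No member probeset and neither diet's set of index values was picked out this way.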

How the results depend on the processing

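Leaving out each array in turn, the log2 difference ran from 1.03 to 1.64 for Prss2, from 1.60 to 2.18 for Prss3, from −0.43 to 0.24 for Prss1 and from −0.83 to −0.39 for the brightest Spink1 probeset. Over the other settings (pseudocounts of 1 and 32, no filter or one at the 70th percentile, quantile normalization, median centring, other variance priors, array weights, covariates) Prss2 ran from 1.18 to 1.79 and Prss3 from 1.58 to 2.55. Prss1 ran from −0.16 to 0.37 there. Spink1 was 0.11 when read from its probeset without a suffix. The filter and the variance prior cannot move a difference. Nor can the replicate number as a block, as every number occurs in both diets, so 1.32, 1.89, −0.12 and −0.65 were fixed in advance there. With that block 0 probesets passed adjustment, and the acinar index difference was −0.33 (exact permutation p = 0.375). Deviations of same-numbered arrays correlated at −0.0017, 0.0033, 0.14, 0.25 and 0.30. As not every pair was above 0.1, the numbers were not taken as pairs, although 3 of 5 cafeteria arrays correlated best with their own number, a hint from the data and not from the design. The count of called probesets, 0, was 1 without standard replicate 2 (Emp1, adjusted p = 0.0386 by limma, named after its values were seen), and the count in the trypsin list stayed 0.

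Correlations with the index without each array ran from 0.92 to 0.96 for Prss1, 0.16 to 0.47 for Prss2, −0.013 to 0.29 for Prss3 and 0.73 to 0.93 for Spink1. That of Prss3 was −0.013 without cafeteria replicate 4. With the diet means removed it was 0.90 for Prss2 and 0.69 for Prss3. Without the 2 arrays farthest from the median index, a setting chosen after seeing the data, it was 0.71 for Spink1. The index difference ran from −0.52 to −0.13 without single arrays. The causes were not tested. Prss3 and Spink1 are limited by signals near the low end of the arrays.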

Other observations

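Transcription factors that act in acinar cells were measured beside the enzyme genes. Of 11 listed, 8 were measured and 5 passed the filter. By limma 0 of these passed adjustment (lowest adjusted p = 0.479), with 1 lower at an unadjusted p under 0.05. Of all 18625 tested probesets, 915 were lower at that threshold. Bhlha15, which encodes the acinar maturation factor MIST1, had a signal of 578.7 ± 162.3 in the cafeteria group and 538.6 ± 141.5 in the standard group (SD, n = 5 each), a log2 difference of 0.094 (SE 0.21). Tcf12 and Rbpj, whose products can join the PTF1 complex, differed by −0.20 (SE 0.090) and −0.16 (SE 0.078). Nr5a2 and Gata6 differed by −0.0024 and 0.13. Ptf1a itself lay below the filter, at 50.8 ± 22.3 in the cafeteria group and 69.8 ± 12.2 in the standard group (SD, n = 5 each).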
